A study of Mus musculus with 27 samples.

Results

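Transcripts of Prrx1, of the reporter transgene and of 8 further transcription factors of the limb mesenchyme were examined in tdTomato-labelled cells sorted from muscle, periosteum and bone marrow. The entries were chosen by name (Prrx1, Prrx2, Twist1, Twist2, Tbx4, Tbx5, Pitx1, Shox2, Tbx15 and the entry TRANSGENES) and are 10 of the 30154 entries of the expression table. The mice carried Prx1-CreER-EGFP, the Ai14 tdTomato reporter and the Rag1 tm1Mom allele, which removes mature B and T cells, and all groups shared these alleles. Animals of both sexes, 8 to 12 weeks old, received 2 tamoxifen injections, and hindlimb tissue was taken 3 days after the last one. Bone marrow was flushed from the bones, periosteum was digested for 20 min and muscle for 60 min. Labelled cells without CD45 were then divided by CD105 and CD200. P1 cells had CD200 and no CD105, P2 cells had neither marker, and P3 cells had CD105 with any level of CD200. This gave 9 groups of 3 libraries each, from 3 mice per group. Per the series' design text, tissues were sampled from shared animals, but which animal gave which library is not given, so libraries of different groups may share an animal. None of the groups analysed here was without tamoxifen, without the reporter or unlabelled.

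Prrx1 (older name Prx1) encodes a paired-type homeodomain factor of the early limb bud mesenchyme, and its enhancer is widely used to drive Cre in cells that give rise to bone, cartilage and connective tissue of the limb. In a CreER line Cre acts only when tamoxifen is present, and a cell in which it has acted keeps making tdTomato from the ROSA26 locus whether or not Prrx1 is still transcribed. Prrx2 is the close relative of Prrx1. Twist1 and Twist2 are basic helix-loop-helix factors of immature mesenchyme, Shox2 is a homeodomain factor of the proximal limb, Tbx15 is a T-box factor of skeleton and muscle, Pitx1 and Tbx4 mark the hindlimb and Tbx5 the forelimb.

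For 6 of the 9 endogenous genes the RefSeq promoter table (GRCm38.p6) had an entry, and for 4 of them at least part of the 250 bases before the start site lay outside every annotated exon. These 4 stretches are shown because they stand before the RefSeq start sites of genes whose transcripts are compared below. For Tbx4 that site lies inside the gene as GENCODE annotates it, downstream of its first start. Capitals mark matches on either strand to TAATTA (a core recognised by homeodomains), CANNTG (the E-box, recognised by basic helix-loop-helix factors), AGGTGT (a T-box core), TATAAA and CCAAT, and none of these matches overlapped.
Prrx1 chr1:163313711-163313900: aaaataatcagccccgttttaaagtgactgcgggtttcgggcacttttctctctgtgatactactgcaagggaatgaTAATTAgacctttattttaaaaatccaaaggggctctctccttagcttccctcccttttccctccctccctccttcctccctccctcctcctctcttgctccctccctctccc
Twist1 chr12:33957421-33957670: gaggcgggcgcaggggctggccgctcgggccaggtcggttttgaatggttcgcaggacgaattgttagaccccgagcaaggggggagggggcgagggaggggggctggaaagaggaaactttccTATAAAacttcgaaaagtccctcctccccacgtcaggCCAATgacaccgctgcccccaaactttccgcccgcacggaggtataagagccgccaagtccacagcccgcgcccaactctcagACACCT
Shox2 chr3:66981772-66982021: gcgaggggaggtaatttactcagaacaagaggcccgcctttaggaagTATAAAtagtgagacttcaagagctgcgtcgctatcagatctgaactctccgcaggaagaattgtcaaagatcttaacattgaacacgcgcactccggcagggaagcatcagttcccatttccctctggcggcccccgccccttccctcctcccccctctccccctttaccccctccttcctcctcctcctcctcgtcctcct
Tbx4 chr11:85896515-85896764: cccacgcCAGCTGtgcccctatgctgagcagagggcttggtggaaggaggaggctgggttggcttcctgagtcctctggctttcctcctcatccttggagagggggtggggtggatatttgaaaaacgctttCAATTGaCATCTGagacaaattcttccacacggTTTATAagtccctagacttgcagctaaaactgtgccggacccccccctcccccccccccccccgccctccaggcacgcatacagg
Prrx1 and Shox2 lie on the minus strand, Twist1 and Tbx4 on the plus strand. The 190 bases of Prrx1 hold 1 TAATTA, at position -173 from the RefSeq start site, and 4.02% of 32851 promoter stretches of that length hold one. Tbx4 has 3 E-boxes, and 66.2% of all stretches of 250 bases hold at least 1. AGGTGT stands at -6 in Twist1 (11.8% of stretches), which also has a CCAAT at -89 (33.8%). TATAAA stands at -126 in Twist1, at -203 in Shox2 and at -85 in Tbx4 (12.4% of stretches). These matches describe letters only.

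Each value below is a normalized count as the authors deposited it, and the depth in reads is unknown. Library totals were 8639660 to 26232100. All 10 entries were among the 18443 that reached 10 in 3 or more libraries. The P2 libraries stood apart. Globin transcripts made up 44.2 to 47.3% of the total in bone marrow P2 and 24.04 to 38.5% in periosteum P2, against at most 4.28% in any other group. The summed level of 9 mesenchyme markers was 2713 to 8442 in bone marrow P2 and 4560080 to 8807320 in bone marrow P1, with none of the 9 listed at 0 in all libraries of a group. The 10 erythroid markers summed to 8061290 to 12818500 in bone marrow P2 and 3451050 to 9549580 in periosteum P2. The 6 muscle fibre markers reached 1654570 to 1782170 in muscle P2, against at most 37378 in muscle P1. The 5 endothelial markers were highest in P3 cells, at 22544 to 37687 in muscle and 12648 to 28580 in periosteum. The part of these transcripts in the results below was not tested, and results are therefore also given without the P2 libraries. In sorted bulk samples, fewer cells of a type and less RNA per cell cannot be told apart. Rag1 was listed at 0 in the periosteum P1 and P2 libraries and reached 84.7 in bone marrow P2, and which bases of Rag1 those reads covered is not given. Gt(ROSA)26Sor was not analysed here.

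**Figure D1:**
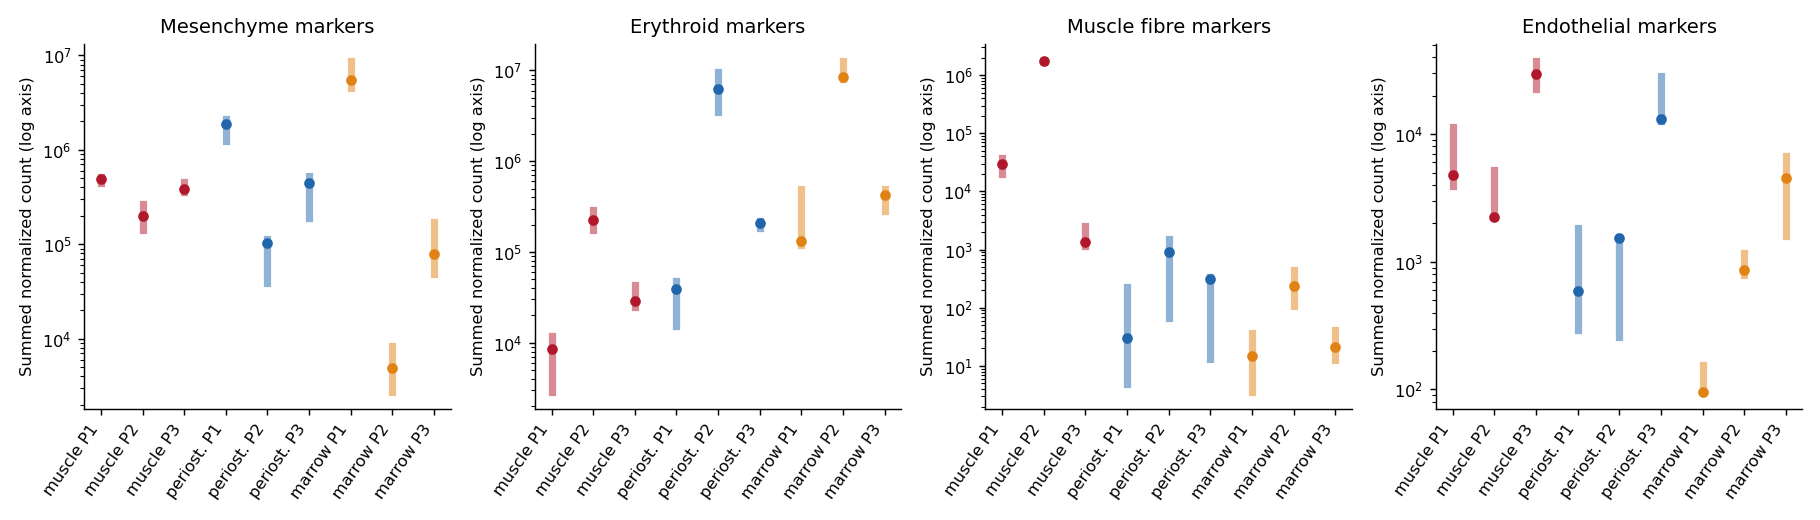
Summed normalized counts of marker genes of 4 cell types in the 9 groups (log axis), with a point for the median of 3 libraries and a bar from the lowest to the highest. Mesenchyme markers were lowest in bone marrow P2 (2713 to 8442), where erythroid markers were highest (8061290 to 12818500).

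Prrx1 (GRCm38, ENSMUSG00000026586, chromosome 1, 163245119 to 163313710, minus strand) had its highest group means in the P1 cells of both bone compartments. In periosteum P1 the libraries were at 4578, 1516 and 2544 and in bone marrow P1 at 2413, 1674 and 1819. Bone marrow P2 lay at the other end of the order, at 90.8, 69.03 and 170.3, and bone marrow P3 held 725, 132 and 147. The 3 libraries of P1 in bone marrow thus lay above all 6 of P2 and P3. Muscle was more even, with 1266, 1202 and 1313 in P1 and 712, 934 and 808 in P3, while muscle P2 had 1146, 878 and 2371. Periosteum P3 was at 1649, 2183 and 1153. Periosteum P2 was the most uneven group, at 2377, 64.04 and 302, so that 1 library was in the range of P1 and another below the lowest bone marrow P2 library. From the highest group mean, 2879 ± 1558 (SD, n = 3), to the lowest, 110.1 ± 53.3 (SD, n = 3), Prrx1 spanned 26.2-fold, and each group overlapped with its neighbour in the order of the means.

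The reporter transgene was abundant in all groups other than bone marrow P2. The entry is named TRANSGENES, and which sequences it sums is not given. It was highest in bone marrow P1, at 24200, 47050 and 32777, followed by muscle P2 at 26650, 27124 and 15527. P1 cells of muscle had 16555, 22120 and 19372 and those of periosteum 13208, 19965 and 17452. Periosteum P2 (13598, 9235 and 13517), muscle P3 (5387, 14708 and 15831) and periosteum P3 (11165, 11837 and 6153) were lower in the mean and overlapped. Bone marrow P3 was at 7779, 4005 and 4187. Bone marrow P2 was at 1296, 1234 and 1181, with a mean of 1237 ± 57.2 (SD, n = 3), and overlapped with no other group, although all cells had been sorted for tdTomato. The highest group mean was 28.03-fold above the lowest. Group membership accounted for 92.3% of the variance of the transgene on the log2 scale, against 63.4% for Tbx4 to 81.1% for Tbx15 among the other 9 entries.

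**Figure D2:**
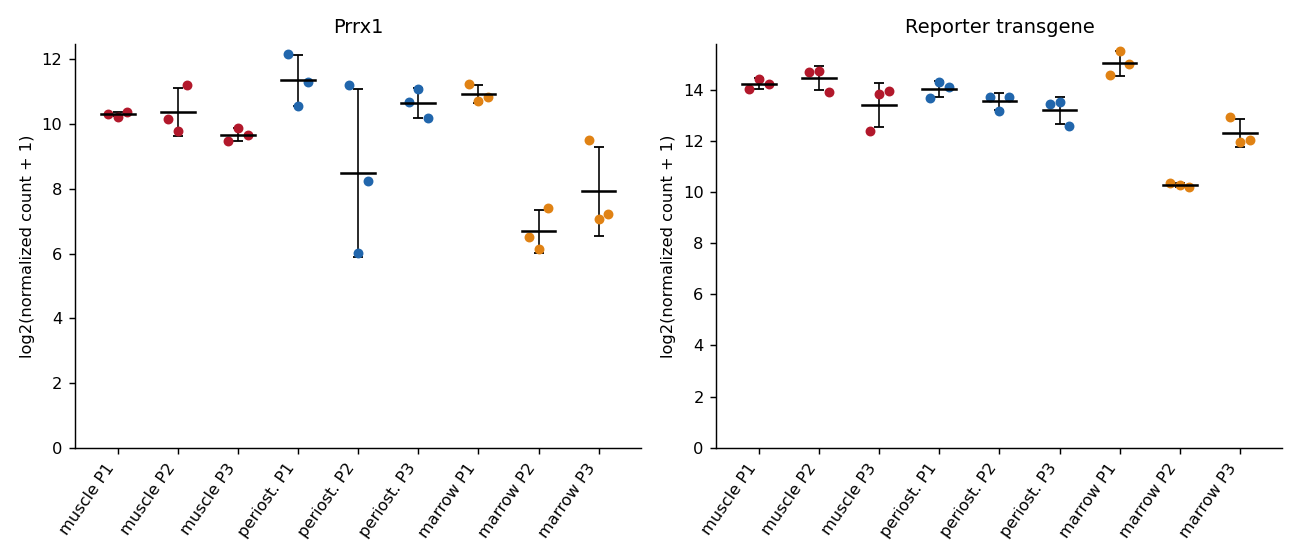
Prrx1 and reporter transgene in the 27 libraries, as log2(normalized count + 1), with a point per library, a line at the mean and bars of 1 SD (n = 3 per group). The bone marrow P2 libraries of the transgene sat below all others, and Prrx1 in periosteum P2 was at 2377, 64.04 and 302 before the log.

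Transgene and Prrx1 did not keep a fixed proportion. The ratio of their normalized counts, which also carries the unknown length of the transgene entry, had a median of 5.42 in periosteum P3 (5.34 to 6.77) and 6.86 in periosteum P1 (2.89 to 13.2). The median was 14.8 in muscle P1 (13.1 to 18.4), 23.3 in muscle P2 (6.55 to 30.9) and 15.8 in muscle P3 (7.57 to 19.6). In bone marrow it was 18.02 in P1 (10.03 to 28.1), 14.3 in P2 (6.9 to 17.9) and 28.4 in P3 (10.7 to 30.3), and these ranges overlapped. Periosteum P2 had the widest range, 5.72 to 144, with an even transgene beside an uneven Prrx1. Over the 27 libraries the Pearson correlation of the log2 values was 0.74, and after each group's mean was removed it was 0.23. The libraries share groups and 1 scaling, so these coefficients describe them and carry no test.

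Prrx2 (ENSMUSG00000039476, chromosome 2, 30834972 to 30881251, plus strand) was highest in periosteum P1, at 287, 92.5 and 377, with periosteum P3 at 65.7, 147 and 51.1. Muscle held 79.5, 40.1 and 94.5 in P1, 84.4, 38.6 and 40.7 in P3 and 43.7, 50.7 and 9.44 in P2, ranges that overlapped. In bone marrow the libraries were at 9.44, 11.9 and 65.4 for P1, 15.98, 12.4 and 8.12 for P3 and 4.23, 0 and 0 for P2, which did not overlap with P3. The commonest low value of a bone marrow P2 library was 2.83 to 3.25, so these values are low for such a library. The lowest value that a library can show is not known, as whole reads could not be recovered. Periosteum P2 had 98.3, 0 and 0, and the library above 0 was the one with the highest Prrx1 of that group. Of the endogenous factors examined, Prrx2 had the highest correlation with Prrx1 (r = 0.79, and 0.58 within groups, n = 27 libraries).

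Twist1 was highest in the P1 cells of both bone compartments. Twist1 (ENSMUSG00000035799, chromosome 12, 33957671 to 33959829, plus strand) was at 206, 199 and 327 in periosteum P1 and at 209, 189 and 243 in bone marrow P1. Muscle P1, at 108, 98.6 and 69.7, lay above all libraries of muscle P2 (68.1, 12.9 and 38.7) and muscle P3 (30.5, 57.5 and 31.5). In bone marrow the subpopulations formed separate ranges, with P3 at 19.2, 14.3 and 19.6 and P2 at 2.98, 2.78 and 6.36. Periosteum P2 had 77.5, 211 and 0 and periosteum P3 84.3, 312 and 62.5, both overlapping with P1. Twist2 (ENSMUSG00000007805, chromosome 1, 91801461 to 91848028, plus strand) had nearly equal means in muscle P1, at 72.1, 124 and 110.3, and in the uneven periosteum P1, at 98.1, 4.73 and 203, which overlapped, whereas bone marrow P1 held 14.2, 18.5 and 14.3. Muscle P2 was at 14.5, 51.7 and 12.3 and muscle P3 at 31.6, 47.6 and 86.5. Periosteum P3 was uneven as well, at 68.9, 2.75 and 106. Periosteum P2 had 3.55, 0 and 0, bone marrow P2 6.27, 0 and 0 and bone marrow P3 38.7, 11.96 and 1.96. The antisense gene Gm29100 shares 1477 exonic bases with Twist2, 46.5% of its exonic length. The kit does not mark strand, so reads of both genes cannot be told apart there and the Twist2 values are uncertain.

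Shox2 and Tbx15 peaked in different tissues. Shox2 (ENSMUSG00000027833, chromosome 3, 66971727 to 66981771, minus strand) was highest in bone marrow P1, at 744, 950.4 and 1330, apart from periosteum P1 at 457, 521 and 666. Periosteum P2 held 346, 140.1 and 385, whereas periosteum P3 was at 54.98, 15.2 and 98.9. Bone marrow P3 had 332, 86.6 and 49.8 and bone marrow P2 19.7, 11.3 and 126. The muscle groups overlapped, with libraries at 41.1 to 212. Shox2 shares 153 exonic bases with the protein-coding gene Rsrc1 on the opposite strand, which reached 1681 in this table. Tbx15 (ENSMUSG00000027868, chromosome 3, 99240381 to 99354259, plus strand) was highest in muscle P2, at 3025, 3668 and 2447, the group with the muscle fibre transcripts. Muscle P1 was at 600.0, 1532 and 645 and muscle P3 at 468, 658 and 467, both below all libraries of P2. Bone marrow P2 was lowest at 89.8, 7.39 and 36.7, with P3 at 299, 221 and 76.9 and P1 at 589, 876 and 529.9. Periosteum P1 held 592, 357 and 602, P2 609, 1713 and 583 and P3 553, 3009 and 234, the last with 1 library far above the others.

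The hindlimb factors Pitx1 and Tbx4 were detected in all 3 tissues, and so was the forelimb factor Tbx5, although the cells came from the hindlimb. Pitx1 (ENSMUSG00000021506, chromosome 13, 55825051 to 55836192, minus strand) was at 1407, 270.0 and 340.1 in periosteum P1, 111, 424 and 333 in periosteum P2 and 187, 411 and 50.6 in periosteum P3. Muscle P1, at 89.3, 127 and 94.5, lay above muscle P2 (13.5, 6.09 and 30.6) and muscle P3 (9.15, 16.2 and 27.8). In bone marrow, P1 had 271, 88.9 and 182, P3 193, 43.4 and 6.48 and P2 11.8, 24.8 and 6.32. Pitx1 shares 165 exonic bases with the antisense gene Gm47071. Tbx4 (ENSMUSG00000000094, chromosome 11, 85886422 to 85916097, plus strand) ranged over 43.7 to 211 in the 9 muscle libraries, 7.96 to 427 in those of periosteum and 0 to 60.97 in those of bone marrow. Bone marrow P3 was its lowest group, at 0.725, 2.91 and 3.81. Tbx5 (ENSMUSG00000018263, chromosome 5, 119832668 to 119885219, plus strand) had its highest values in P2 cells of the bones, at 196, 47.8 and 219 in bone marrow and 117, 136 and 119 in periosteum. The P1 cells of the same tissues did not overlap with these, at 3.397, 14.2 and 11.996 and 10.6, 29.7 and 13.2.

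**Figure D3:**
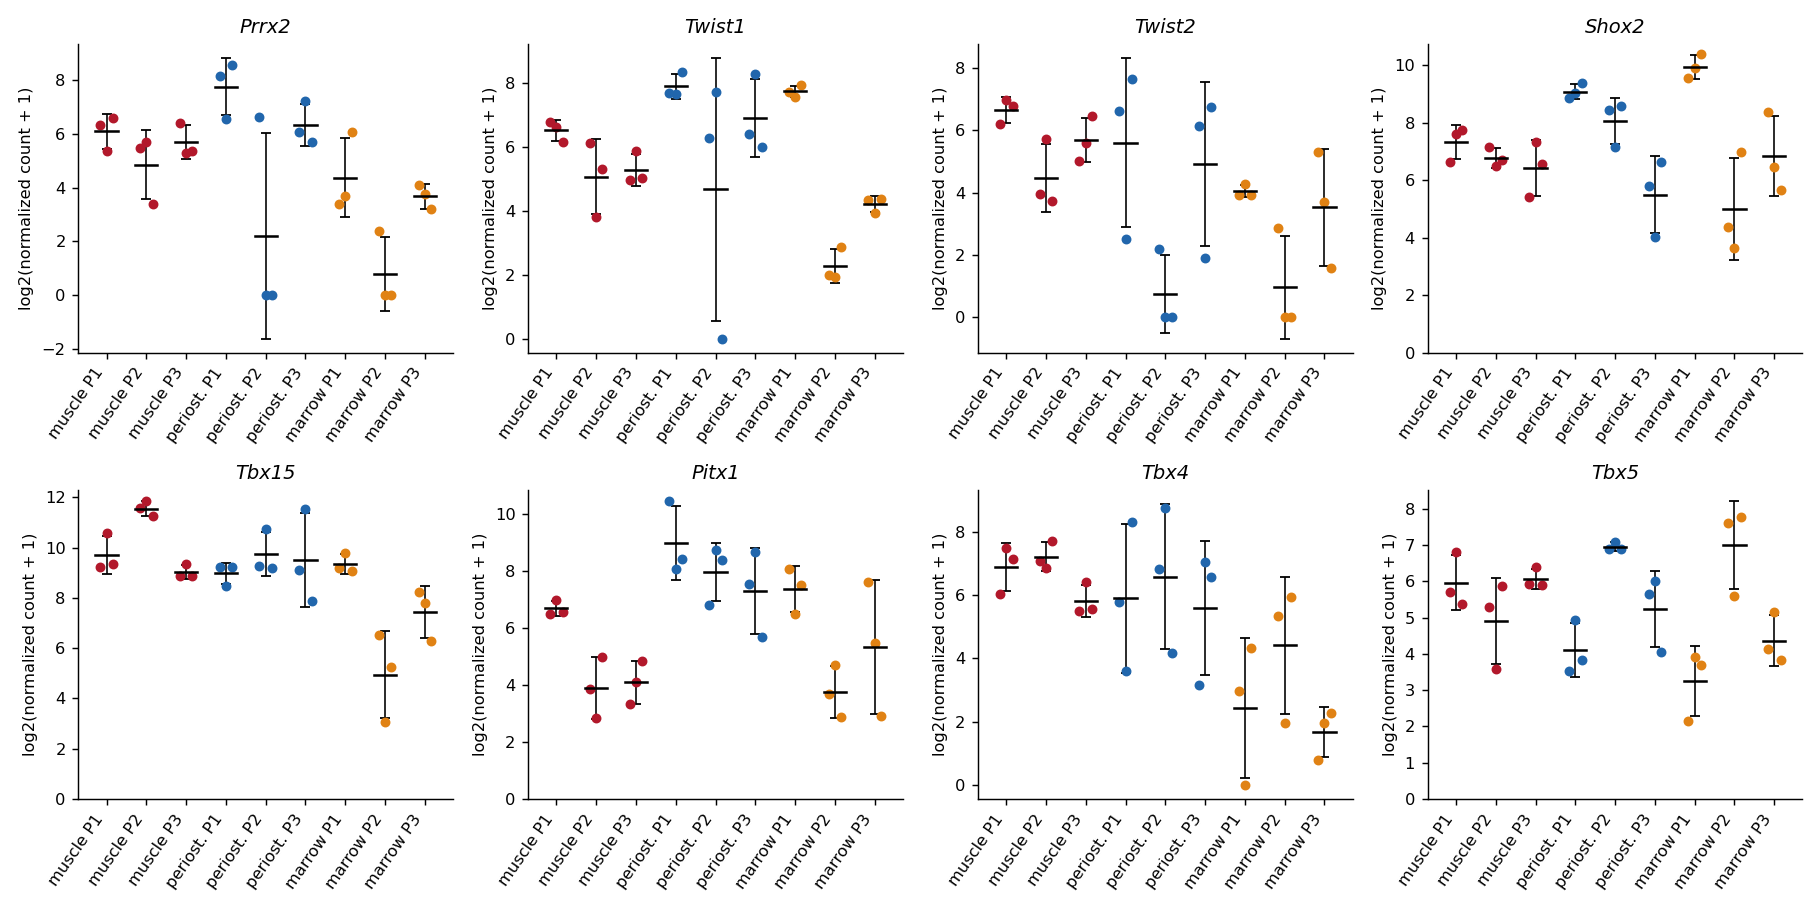
The 8 other transcription factors in the 27 libraries, as log2(normalized count + 1), with a point per library, a line at the mean and bars of 1 SD (n = 3 per group). Bone marrow P2 had the lowest mean normalized count for Prrx2, Twist1, Pitx1, Shox2 and Tbx15 and the highest for Tbx5 (154).

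Per kilobase of exon (GENCODE M21), a scale on which genes can be set beside each other, Tbx15 had the highest mean level of the 9 endogenous factors in 6 of the 9 groups. In muscle its level was 247 in P1 cells, 813 in P2 cells and 142 in P3 cells, with Prrx1 next at 114, 132 and 73.9. Tbx15 also led by its mean in periosteum P2 (258 ± 172, SD), periosteum P3 (338 ± 405) and bone marrow P3 (53.1 ± 30.1). In periosteum P3 its mean was raised by 1 library, at 3009 normalized counts against 553 and 234. Prrx1 was next there, at 150 ± 46.5. Prrx1 led in periosteum P1 at 260.2 ± 141, beside Pitx1 at 253 ± 240. The Pitx1 libraries of that group were at 1407, 270.0 and 340.1 normalized counts. Shox2 led in bone marrow P1 at 305, followed by Prrx1 at 178 and Tbx15 at 177. In bone marrow P2 the highest was Tbx5 at 33.01. The exonic length of Prrx1 is 11066 bases over all its transcripts, so its level is understated where shorter transcripts prevail.

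Between tissues, averaged over the 3 subpopulations, several limb factors were higher in the solid tissues than in bone marrow. Muscle against bone marrow gave 5 of 10 entries as differentially expressed (limma, adjusted p below 0.05 and a log2 fold change above 1.5 in size), beside 21.7% of all entries tested (10.9% higher and 10.8% lower in muscle). Tbx4 was higher in muscle by 3.8 ± 0.805 (log2 fold change ± SE, adjusted p = 0.000817), Tbx15 by 2.86 ± 0.47, Twist2 by 2.76 ± 0.78, Prrx2 by 2.6 ± 0.77 and Prrx1 by 1.6 ± 0.48 (adjusted p = 0.0139). The Prrx1 call was lost without muscle P2 replicate 3 or without bone marrow P3 replicate 2 or 3, the lowest value being 1.46. Without the P2 libraries Tbx4 (4.3) and Prrx2 (1.87) still passed and Tbx5 (2.2) passed as well. Prrx1 was then at 0.56 (adjusted p = 0.345), Tbx15 at 0.99 (adjusted p = 0.211) and Twist2 at 2.39 (adjusted p = 0.106).

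Periosteum against bone marrow also gave 5 of 10 entries, all higher in periosteum, beside 20.8% of all entries (4.01% higher and 16.8% lower). They were Tbx4 (3.18 ± 0.805, adjusted p = 0.0054), Pitx1 (2.61 ± 0.62, adjusted p = 0.00325), Prrx2 (2.48 ± 0.77), Tbx15 (2.17 ± 0.47) and Prrx1 (1.65 ± 0.48, adjusted p = 0.0139). Without the P2 libraries Prrx1 was at 1.57 (adjusted p = 0.0101), Tbx4 at 3.69 and Prrx2 at 3.02, all past the threshold, whereas Pitx1 (1.8, adjusted p = 0.12) and Tbx15 (0.86, adjusted p = 0.284) did not pass. When the libraries of these tissues were fitted alone, Prrx2 did not pass (adjusted p = 0.061). Leaving out periosteum P2 replicate 1 alone took Prrx1 to 1.2 and ended its call. Twist1 was at 1.75 and did not pass (adjusted p = 0.0779), but did without periosteum P2 replicate 3 (2.53), the library listed at 0. Prrx2 and Twist2 were listed at 0 in 4 libraries each and Twist1 and Tbx4 in 1 each, so their fitted folds depend on the 1 added before the log.

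Muscle and periosteum differed in 1 of 10 entries, beside 20.4% of all entries (17.2% higher and 3.19% lower in muscle). Pitx1 had a log2 fold change of -3.2 ± 0.62 (adjusted p = 0.000602), lower in muscle, and was at -2.75 without the P2 libraries (adjusted p = 0.0214). Twist2 was at 1.85 (adjusted p = 0.0854) and passed without periosteum P1 replicate 3 or periosteum P3 replicate 3. Twist1 was at -0.86 (adjusted p = 0.402), passed without periosteum P2 replicate 3 (-1.64), and was at -1.49 without the P2 libraries (adjusted p = 0.0381), just under the fold threshold. For Prrx1 the difference was -0.046 with a 95% interval of -1.04 to 0.95, and for the transgene 0.44 with an interval of 0.024 to 0.86. The transgene was above bone marrow by 1.49 ± 0.202 in muscle (adjusted p = 3.96e-06) and by 1.05 ± 0.202 in periosteum (adjusted p = 0.000502), both under the fold threshold. The first passed without any 1 of muscle P1 replicate 1, muscle P2 replicate 3, muscle P3 replicate 1, bone marrow P1 replicate 2, bone marrow P2 replicate 1 or bone marrow P3 replicate 1 (highest value 1.66). Without the P2 libraries these differences were 0.14 and -0.063. The median over all entries was 0.56 for muscle against periosteum, -0.097 for muscle against bone marrow and -0.69 for periosteum against bone marrow, and relative to it Prrx1 stood at -0.61, 1.7 and 2.34.

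**Figure D4:**
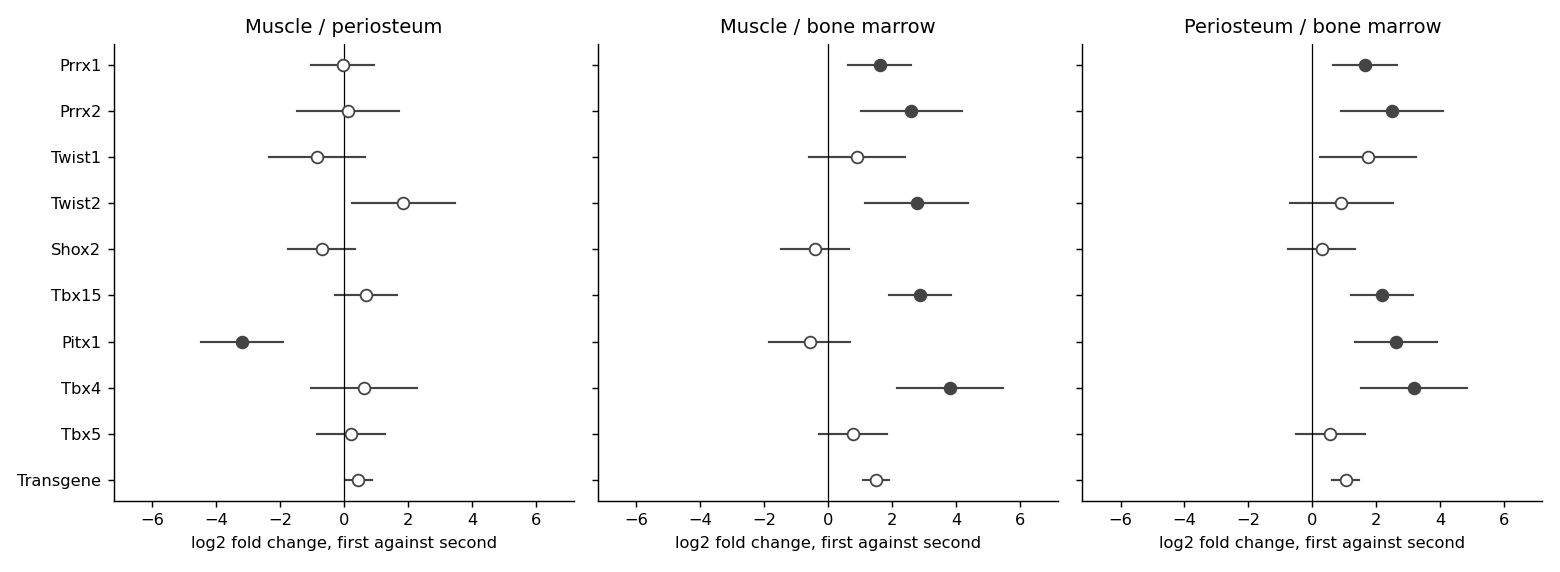
Log2 fold changes between tissues for the 10 entries, with 95% intervals and filled points where the adjusted p was below 0.05 and the fold change above 1.5 in size. Pitx1 was the one filled point between muscle and periosteum (-3.2), and Tbx4 lay farthest from 0 in both comparisons with bone marrow (3.8 and 3.18).

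P1 cells were then set against the mean of P2 and P3. Across tissues 7 of 10 entries were higher in P1 and none lower, beside 14.6% of all entries (6.88% higher and 7.67% lower). Twist1 was higher by 2.65 ± 0.63 (adjusted p = 0.00383), Shox2 by 2.35 ± 0.44, Pitx1 by 2.29 ± 0.54, Prrx2 by 2.15 ± 0.67 and Twist2 by 2.05 ± 0.68. Prrx1 was higher by 1.89 ± 0.42 (adjusted p = 0.00205) and the transgene by 1.57 ± 0.17 (adjusted p = 4.67e-07). Tbx5 was at -1.32 (adjusted p = 0.0387, under the fold threshold), Tbx15 at 0.64 and Tbx4 at -0.14. The call of Twist2 was lost without any 1 of muscle P1 replicates 2 and 3, periosteum P1 replicates 1 and 3, bone marrow P1 replicates 1, 2 and 3 or bone marrow P3 replicate 3 (lowest value 1.71). That of Prrx2 was lost without replicate 3 of muscle P1 or bone marrow P1 (1.87 without the latter), and that of the transgene without muscle P3 replicate 1 or bone marrow P1 replicate 2 (lowest value 1.48). Twist2 did not pass without the filter on low values either, and the transgene was under the fold threshold when libraries were scaled to equal totals without globins. With the P2 libraries left out, so that P3 alone was the reference, Shox2 (2.53), Pitx1 (2.1) and Twist1 (1.92) passed. Prrx1 (1.44, adjusted p = 0.00491) and the transgene (1.46, adjusted p = 0.000352) were under the fold threshold, and Prrx2 (0.84) and Twist2 (0.72) did not pass.

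In bone marrow, 6 entries were higher in P1 and 1 lower, beside 19% of all entries (7.48% higher and 11.5% lower). Twist1 was higher by 4.5 ± 1.09, Shox2 by 4.02 ± 0.77, the transgene by 3.74 ± 0.303 (adjusted p = 4.6e-09), Prrx1 by 3.62 ± 0.72 (adjusted p = 0.000819), Tbx15 by 3.16 ± 0.704 and Pitx1 by 2.83 ± 0.93. For the first 5 of these, all 3 P1 libraries lay above all 6 others, and how many of all entries do so is not given. Tbx5 was lower, at -2.43 ± 0.78 (adjusted p = 0.0293). The call of Pitx1 was lost without any 1 of bone marrow P1 replicates 1, 2 and 3, bone marrow P2 replicates 1 and 3 or bone marrow P3 replicates 2 and 3 (lowest value 2.22). That of Tbx5 was lost without any 1 of bone marrow P1 replicates 1 and 3, bone marrow P2 replicates 1 and 3 or bone marrow P3 replicate 2 (value nearest to 0 -1.88). With P3 alone as the reference, Prrx1 (3.0, adjusted p = 0.00132), Shox2 (3.11), Twist1 (3.53) and the transgene (2.72) still passed, and Tbx15 (1.91), Pitx1 (2.04) and Tbx5 (-1.12) did not. Mesenchyme markers moved with these genes, with 7 of 9 higher in bone marrow P1 and 1 lower, while 10 of 10 erythroid and 5 of 5 endothelial markers were lower.

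In periosteum none of the 10 entries passed by limma, beside 9.16% of all entries (4.32% higher and 4.84% lower in P1). An unadjusted p below 0.05 was found for 6 of the 10, but the share of all entries at that cutoff is not given. Prrx2 was at 3.49 (adjusted p = 0.056), Shox2 at 2.31 (adjusted p = 0.0567) and Prrx1 at 1.77 (adjusted p = 0.124). The P1 libraries of Shox2 lay above all of P2 and P3, and with P3 alone as the reference Shox2 passed (3.59, adjusted p = 0.0113). Without periosteum P2 replicate 1, the library with the high Prrx1, 3 entries passed (Prrx1, at 2.46, Prrx2 and Shox2). Shox2 also passed without any 1 of the other libraries periosteum P2 replicate 3, periosteum P3 replicate 3, bone marrow P2 replicates 2 and 3 or bone marrow P3 replicate 1, Prrx2 without periosteum P3 replicate 2, and Twist2 without periosteum P1 replicate 2 (4.32, against 2.78 with it). In muscle none passed by limma either, beside 1.05% of all entries (0.591% higher and 0.455% lower in P1), and 1 had an unadjusted p below 0.05. That entry was Pitx1 (2.7 ± 0.93, adjusted p = 0.212), whose P1 libraries lay above the other 6, and it passed when the muscle libraries were fitted alone (adjusted p = 0.0338). Prrx1 in muscle was at 0.27 with a 95% interval of -1.21 to 1.76, and the transgene at 0.31 with an interval of -0.32 to 0.93.

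**Figure D5:**
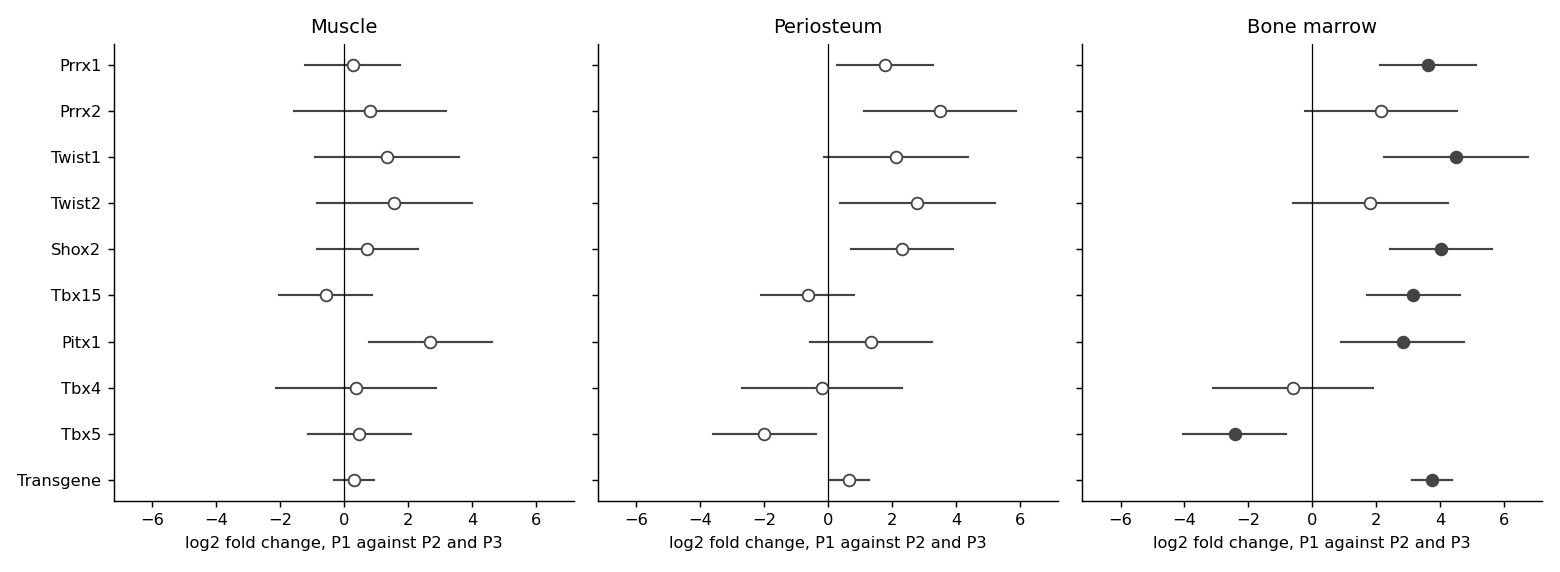
Log2 fold changes of P1 against the mean of P2 and P3 for the 10 entries, with 95% intervals and filled points where the adjusted p was below 0.05 and the fold change above 1.5 in size. Within single tissues, filled points occur in bone marrow alone, from 4.5 for Twist1 to -2.43 for Tbx5.

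The difference between the tissues was itself tested. The P1 difference in muscle minus that in bone marrow was -3.34 ± 1.02 (adjusted p = 0.0449) for Prrx1, -3.74 ± 0.995 (adjusted p = 0.0212) for Tbx15 and -3.43 ± 0.43 (adjusted p = 1.33e-05) for the transgene, where 7.68% of all entries had an adjusted p below 0.05. For periosteum minus bone marrow it was -3.8 ± 0.995 (adjusted p = 0.0389) for Tbx15 and -3.08 ± 0.43 (adjusted p = 0.000125) for the transgene, where 2.89% of entries passed. Between muscle and periosteum none of the 10 passed by limma, where 2.51% did, and 1 had an unadjusted p below 0.05 (Tbx5, 2.47). Without the P2 libraries none of these 5 differences passed. Muscle minus bone marrow was then -2.37 ± 0.75 (adjusted p = 0.0908) for Prrx1, -1.23 ± 1.04 (adjusted p = 0.703) for Tbx15 and -1.89 ± 0.55 (adjusted p = 0.0623) for the transgene. Periosteum minus bone marrow was -2.44 ± 1.04 (adjusted p = 0.272) for Tbx15 and -1.89 ± 0.55 (adjusted p = 0.0946) for the transgene.

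Single groups were also compared in pairs. Bone marrow P1 and P2 differed in 8 of 10 entries, beside 34% of all entries. Twist1 was higher in P1 by 5.48 ± 1.26, Shox2 by 4.94 ± 0.88, the transgene by 4.76 ± 0.35, Tbx15 by 4.41 ± 0.81 and Prrx1 by 4.24 ± 0.83, and Tbx5 was at -3.75 ± 0.901. Bone marrow P1 and P3 differed in Prrx1 (3.0 ± 0.83), Shox2 (3.11 ± 0.88) and the transgene (2.72 ± 0.35), beside 6.61% of all entries. Twist1 was at 3.53 ± 1.26 and did not pass (adjusted p = 0.0975), although the same difference passed with the smaller SE (0.65) of the fit without P2 libraries. The calls of Prrx1 and Shox2 there were each lost without any 1 of bone marrow P1 replicates 1, 2 and 3 or bone marrow P3 replicates 2 and 3. Bone marrow P2 and P3 differed in Tbx5 (2.63), Tbx15 (-2.5) and the transgene (-2.04), beside 20%.

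In periosteum, P1 and P2 differed in Prrx2 (5.55), Twist2 (4.88), Prrx1 (2.85) and Tbx5 (-2.86), beside 19.1% of all entries. The libraries of Prrx1 and Prrx2 overlapped there, and Prrx1 was at 1.62 without periosteum P2 replicate 2. P1 and P3 differed in Shox2 (3.59), beside 4.18%. P2 and P3 differed in Shox2 (2.57), Twist2 (-4.2) and Prrx2 (-4.11), beside 17.1%. In muscle, Tbx15 was higher in P2 than in P3 by 2.52 ± 0.81 (adjusted p = 0.0428), beside 11.2% of all entries, a call lost in 11 of 27 omissions, those of each P2 and P3 library of muscle among them. Muscle P1 differed in none of the 10 by limma from P2 (8.21% of all entries did) or from P3 (0.466%). In each of these pairs 2 of the 10 had an unadjusted p below 0.05, for which no share of all entries is given.

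Among P1 cells Tbx4 alone passed the threshold between tissues by limma. It was higher in muscle than in bone marrow by 4.46 ± 1.39 (adjusted p = 0.0455), beside 8.34% of all entries. That call was lost in 15 of 27 omissions of 1 library, and was kept without any 1 of periosteum P1 replicates 1, 2 and 3, periosteum P2 replicates 1, 2 and 3, periosteum P3 replicates 1, 2 and 3, bone marrow P1 replicate 3 or bone marrow P2 replicates 2 and 3. The Tbx4 difference ran from 3.24 without bone marrow P1 replicate 2, the library in which Tbx4 was listed at 0, to 5.4 without bone marrow P1 replicate 3. In that pair 4 of the 10 entries had an unadjusted p below 0.05, and the share of all entries at that cutoff is not given. Shox2 did not pass, but its libraries were at 98.3 to 212 in muscle P1 and 744 to 1330 in bone marrow P1. Twist1, Prrx1 and the transgene were likewise lower in every muscle P1 library without passing, and Twist2 and Tbx5 higher. How many of all entries separate in this way between groups of 3 libraries is not given. By limma, periosteum P1 differed in none of the 10 from muscle P1 (4.9% of all entries did) or from bone marrow P1 (4.87%). The entries with an unadjusted p below 0.05 were 2 and 3 in these pairs, again without a share of all entries. Prrx1 in P1 cells was at -1.05 for muscle against periosteum (-2.76 to 0.67), -0.63 for muscle against bone marrow (-2.34 to 1.09) and 0.42 for periosteum against bone marrow (-1.3 to 2.14), with 95% intervals in parentheses. Among P2 cells, muscle exceeded bone marrow in 5 entries, with Tbx15 at 6.62 ± 0.81, the transgene at 4.18 ± 0.35 and Prrx1 at 3.69 ± 0.83, beside 40.1% of all entries. Periosteum P2 exceeded bone marrow P2 in Tbx15 (4.79), Pitx1 (4.23), the transgene (3.27) and Shox2 (3.06), beside 20%. Muscle P2 and periosteum P2 differed in Twist2 (3.74) and Pitx1 (-4.08), beside 28%. Among P3 cells, Prrx1 was higher in periosteum than in bone marrow by 2.73 ± 0.83 (adjusted p = 0.0462), beside 6.94%, a call lost in 18 of 27 omissions and kept without any 1 of muscle P2 replicate 3, periosteum P1 replicates 1 and 2, periosteum P2 replicates 1, 2 and 3, periosteum P3 replicate 3, bone marrow P2 replicate 3 or bone marrow P3 replicate 1. Muscle P3 differed in none of the 10 by limma from periosteum P3 (3.5% of all entries did) or from bone marrow P3 (10.4%). An unadjusted p below 0.05 was found for 1 and 3 entries in these pairs, with no share of all entries given.

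Many of these pairwise calls were near the threshold. When the 6 libraries of a pair were fitted alone, none of the calls within periosteum was kept, nor were those of Shox2 between bone marrow P1 and P3, of Tbx5 and Tbx15 between bone marrow P2 and P3, of Tbx4 in P1 cells and of Prrx1 in P3 cells. In P2 cells the calls between muscle and periosteum and those of Pitx1 and Shox2 between periosteum and bone marrow were then lost as well. Leaving out 1 of the 6 libraries ended, for at least 1 of them, every call within periosteum other than that of Prrx2 between P1 and P2.

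The genes whose pattern was most like Prrx1 were taken by Pearson correlation of log2 values over the 27 libraries. They were Lrp1 (0.92), an endocytic receptor, Lgals1 (0.92), which encodes galectin-1, Ptgfrn (0.91), Boc (0.904), a hedgehog co-receptor, Tgfb3 (0.8997), a TGF-beta ligand, Atxn10 (0.89), Pcolce (0.89), which enhances procollagen processing, and Ndrg4 (0.89). For the transgene they were Arl1 (0.92) and Gorasp2 (0.91), both Golgi proteins, Rabac1 (0.8995), Dcn (0.89), which encodes decorin, Col5a1 (0.89), Htra3 (0.89), Vasn (0.89) and Mmp2 (0.89), a matrix metalloproteinase. Prrx1 ranked 243 of 18442 entries by its correlation with the transgene, and Tbx15 ranked 126 (r = 0.8002). Tbx5 was negatively correlated with Prrx1 (r = -0.44).

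Other limb bud transcription factors, 27 of a list of 29 after the filter, were set beside all entries. Muscle against bone marrow gave 7 higher and 5 lower, where 21.7% of all entries were called, with a median of 0.15 beside -0.097 over all entries. Periosteum against bone marrow gave 4 higher and 2 lower (all entries 20.8%; median -0.31, all entries -0.69), and muscle against periosteum 5 higher and 2 lower (all entries 20.4%; median 1.17, all entries 0.56), both near the share of all entries. For P1 across tissues the counts were 5 higher and 1 lower (all entries 14.6%; median 0.85, all entries -0.12), and in bone marrow 6 higher and none lower (all entries 19%; median 0.76, all entries -0.39). Osr1, a factor of irregular connective tissue, was higher in muscle than in bone marrow by 4.53 ± 0.59, and Msx1, a target of BMP signalling, by 4.14 ± 0.901. Dlx5, a factor of osteoblast differentiation, was lower in muscle than in periosteum (-3.51 ± 0.88) and higher in P1 across tissues (4.38 ± 0.76).

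Partners and antagonists of Twist, 10 of a list of 11 after the filter, included Id genes, whose products bind E proteins and keep them from DNA. Muscle against bone marrow gave 4 higher and 1 lower, beside 21.7% of all entries, with a median of 0.89 (all entries -0.097). Periosteum against bone marrow gave 4 higher and 2 lower, beside 20.8%, with a median of 0.76 (all entries -0.69). P1 in bone marrow gave 3 higher and none lower, beside 19%, with a median of 1.46 (all entries -0.39). Id3 was higher in muscle than in bone marrow by 3.44 ± 0.25 and in bone marrow P1 than in the other bone marrow cells by 4.79 ± 0.37 (adjusted p = 1.82e-09). Id2 was higher in muscle than in bone marrow by 2.41 ± 0.401. Tcf3, an E protein, was lower there, at -2.89 ± 0.39. Tcf4, another E protein, was higher in bone marrow P1 by 1.67 ± 0.32 (adjusted p = 0.000636).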

How the data were processed

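RNA-seq was made on 27 libraries of tdTomato+ CD45- mouse cells from 3 tissues and 3 subpopulations. Full-length cDNA was made with the SMART-Seq v4 kit and libraries with Nextera XT, which do not mark strand. The study used Trim Galore for trimming and STAR for alignment. The genome build, annotation and counting tool are not given in the sources used here. The deposited values are signal values, namely the authors' normalized counts per gene. Whole reads could not be recovered from them, so no counting error is given. Group and replicate were taken from the sample labels.

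Log2(normalized count + 1) was fitted with limma 3.58.1 in R 4.3.3 (lmFit, then eBayes with a trend), with a mean for each of 9 groups and 1 shared estimate of the spread, on the 18443 entries at 10 or more in at least 3 libraries. P-values were adjusted by Benjamini-Hochberg over those entries, and the study's thresholds (0.05 and a log2 fold change of 1.5) were used. Shares of all entries refer to these thresholds, or to the adjusted p alone where the P1 effect was compared between tissues. For an unadjusted p below 0.05, and for libraries that do not overlap, no share of all entries is given. The log2(value + 1) scale understates the change of low genes. Tissues were compared in pairs, P1 with the mean of P2 and P3 (jointly and tissue by tissue), single groups in pairs, and the P1 effect between tissues. The fit was checked on simulated data, where it missed most of the genes changed for P1 in bone marrow and many of those changed between muscle and periosteum, so an entry that did not pass may still differ. GENCODE M21 (GRCm38) held 29732 of the identifiers and gave the coordinates, and that build may differ from the authors'. Genes named were the 10 entries, the 4 with the highest mean of each list, and the 8 most like Prrx1 or the transgene. Marker lists of mesenchyme, erythroid, leukocyte, muscle fibre, endothelial, satellite and mural cells were summed per library. Some genes and a marker list are not reported here. Members and lists were chosen with earlier results of these data known. Same-numbered replicates did not deviate together (mean r = 0.000243 over 36 pairs of groups). Figures were drawn with matplotlib 3.10.9.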

Additional observations from a re-analysis of the deposited data

Results flagged for a closer look

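The P1 effect differed between tissues for 3 entries by a test of the difference itself, with the adjusted p-values given in the report. Muscle minus bone marrow was -3.34 for Prrx1, -3.74 for Tbx15 and -3.43 for the reporter transgene on the log2 scale. Periosteum minus bone marrow was -3.8 for Tbx15 and -3.08 for the transgene. None of the 5 passed without the P2 libraries. Erythroid markers summed to 8061290 to 12818500 in bone marrow P2, 3451050 to 9549580 in periosteum P2 and 174523 to 289856 in muscle P2, and their part in these differences was not tested. Groups of 3 libraries were not tested for single outlying libraries.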

How the results depend on the processing

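Counts of the 10 entries past the threshold were recomputed under other settings. Without the P2 libraries, an alternative chosen after seeing the data, they went from 5 to 3 in muscle against bone marrow, 5 to 3 in periosteum against bone marrow, 7 to 3 for P1 across tissues, 7 to 4 for P1 in bone marrow and 0 to 1 for P1 in periosteum. Without the P2 libraries 9 differences turned sign, none of which had passed. Prrx2 in muscle against periosteum turned from 0.12 to -1.15, Shox2 in periosteum against bone marrow from 0.29 to -1.1, and Tbx15 for P1 in muscle from -0.58 to 0.68. The transgene in periosteum against bone marrow turned to -0.063, Twist1 in muscle against bone marrow to -0.071, Tbx5 for P1 in muscle to -0.11, and Tbx4 for P1 to 0.71 across tissues, 0.31 in periosteum and 0.76 in bone marrow. Under quantile normalization Tbx4 turned to -0.12 in muscle against periosteum, 0.17 for P1 across tissues and 0.22 for P1 in bone marrow, and in muscle against periosteum Tbx5 turned to -0.696 and Prrx2 to -0.56. Prrx2 turned there also with a pseudocount of 5 (-0.297) and with equal totals without globins (-0.034). For P1 in periosteum a pseudocount of 5 gave 2. A mean of at least 50, which left Twist2 (mean 42.4) untested, also gave 2. For P1 in muscle a fit of the muscle libraries alone gave 1. With the replicate block, whose numbers did not pair the libraries, the counts were 1, 5, 5, 7, 0, 0 and 7, the same as without it. Leaving out single libraries gave 1 to 2 entries in muscle against periosteum, 4 to 6 in muscle against bone marrow, 4 to 6 in periosteum against bone marrow, 5 to 7 for P1 across tissues, 0 to 0 in muscle, 0 to 3 in periosteum and 5 to 7 in bone marrow. Prrx1 in muscle against periosteum ran from -0.46 to 0.41, Prrx2 there from -0.25 to 0.85, and Tbx4 for P1 from -0.54 to 0.26 across tissues, -1.39 to 0.96 in periosteum and -1.55 to 0.61 in bone marrow. Over the other settings, the 106 fold changes followed reversed in 16 cases, lost the call in 80, gained it in 12 and did neither in 895. Of the 106, 61 were called in the main fit, and only those could lose a call. Quantile normalization took the median over all entries from 0.56 to -0.014 in muscle against periosteum, and equal totals without globins took it from -0.39 to -1.12 for P1 in bone marrow. The causes were not tested. The depth in reads is unknown, which limits what can be said of the low values of Prrx2, Twist2 and Tbx4 in bone marrow.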

Other observations

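Markers of cell types not described above also differed between groups. The 10 leukocyte markers summed to 30416 to 189754 in bone marrow P2 and 18234 to 64282 in bone marrow P1, against at most 988 in a muscle library, although the cells had been sorted without CD45. In periosteum P2 they were at 799.6 to 97469. The 4 satellite cell markers summed to 2953 to 5573 in muscle P1 and 2.03 to 269 in muscle P2. The 4 mural cell markers were at 33867 to 78636 in muscle P1, 4035 to 5313 in periosteum P1 and 779 to 2991 in bone marrow P1. Of 9 leukocyte markers tested, bone marrow exceeded muscle in 7 and periosteum in 7. The muscle fibre markers were higher in muscle than in bone marrow in 6 of 6 and higher in muscle than in periosteum in 6 of 6, and 2 were lower in P1 across tissues. All 10 erythroid markers were lower in muscle than in either other tissue and lower in P1 across tissues. Of 9 mesenchyme markers, 7 were higher in muscle and 6 higher in periosteum than in bone marrow. All 5 endothelial markers were higher in muscle than in either other tissue and lower in P1 across tissues. In P1 cells of muscle 3 of 4 satellite cell markers and 1 of 4 mural cell markers were higher than in the other muscle cells. Beside these counts, 10.9% of all entries were called higher and 10.8% lower in muscle than in bone marrow. For periosteum against bone marrow the shares were 4.01% and 16.8%, and for muscle against periosteum 17.2% and 3.19%. For P1 they were 6.88% and 7.67% across tissues, and 0.591% and 0.455% in muscle. By mean level the leading genes of each list were Col1a2, Col1a1, Dcn and Col3a1 for mesenchyme, Hba-a2, Hbb-bs, Hba-a1 and Hbb-bt for erythroid cells, S100a8, Ngp, S100a9 and Mpo for leukocytes and Acta1, Tnnt3, Ckm and Myh4 for muscle fibres. They were Tek, Pecam1, Kdr and Emcn for endothelium, Chodl, Myf5, Calcr and Pax7 for satellite cells and Acta2, Myh11, Cspg4 and Rgs5 for mural cells.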
